A study of Mus musculus with 7 samples.

Results

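The binding of 3 retinoid receptors was described at 10 genes of de novo lipogenesis, the making of fatty acids from sugar-derived carbon, in mouse liver. The genes were Srebf1, Mlxipl, Acly, Me1, Acaca, Acacb, Fasn, Scd1, Gpam and Thrsp, 10 of 21536 protein-coding genes with a known strand. They were chosen by name, not by their peaks, though earlier results of these data were known at that time. A peak was assigned to a gene when its midpoint lay in the gene span or within 50 kb of it, and its offset was counted from the outermost annotated start, with negative offsets upstream. Chromatin immunoprecipitation with sequencing had been done with antibodies to RARα, RARβ and RXRα on livers of wild-type male C57BL/6 mice aged 3 months. The mice were fed control chow or chow with added retinoic acid (RA), which the labels give as 1 day of feeding, whereas the study's methods give a longer feeding, so that the length of treatment is not settled here. Each receptor and diet had 1 library, and 1 input library has no peak list here. The values therefore have no replicate check, no test between diets or receptors was possible, and the intervals given cover counting error only.

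RAR and RXR are nuclear receptors that bind DNA as a pair, and RXRα also pairs with LXR, PPARα and other receptors, so that an RXRα peak need not hold a RAR. In lipogenesis, ATP citrate lyase (Acly) makes cytosolic acetyl-CoA, the acetyl-CoA carboxylases (Acaca, Acacb) make malonyl-CoA, fatty acid synthase (Fasn) builds palmitate with NADPH that malic enzyme (Me1) helps to supply, stearoyl-CoA desaturase (Scd1) adds a double bond, and the mitochondrial acyltransferase Gpam starts glycerolipid assembly. Insulin and sugar act on these genes through SREBP-1c, made from Srebf1, and ChREBP, made from Mlxipl, and Srebf1 is a classic target of LXR with RXR. A peak shows where a receptor was found and does not measure expression.

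The 6 lists held between 14968 and 61128 peaks, and the read depth behind each list is not known here. The study gives totals of mapped reads for RXRα and RARα without naming a diet, and none for RARβ. Those totals were therefore not assigned to these lists. The control and RA lists held 35521 and 44296 peaks for RARα, 14968 and 29467 for RARβ, and 61128 and 59624 for RXRα. A list's length sets how many genes carry a peak, so counts of genes with a peak are set beside the same share over all genes. The score is that of the peak caller, and since it is not normalized between lists, scores are given as they stand, with a rank where lists are set side by side. The rank is the percentage of the list that scored as high or higher (a peak in the top 1% is among the strongest of its list).

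Nearly all of the 10 genes carried receptor peaks near the start, taken as at most 10 kb from it. In the control lists RARα was found at 8 genes (61.9% of all genes had such a peak), RARβ at 7 (44.1%) and RXRα at 10 (61.3%). In the RA lists RARα was found at 10 (63.3% of all genes), RARβ at 9 (54.7%) and RXRα at 10 (61.7%). Srebf1, Mlxipl, Fasn, Acacb, Acly and Thrsp had such a peak in all 6 lists, 6 of 10 genes against 38.2% of all genes. Acaca and Gpam lacked one only for RARβ under the control diet, and Scd1 only for RARα under the control diet. Me1 stood lowest, with 3 lists, those of RXRα in both diets and RARα under RA. When every list was reduced to its 14968 best peaks, 5 genes kept such a peak for RARα and 5 for RXRα in the control lists, beside 47.1% and 20.6% of all genes. RARβ kept 7 in the control list (44.1%). Under RA each receptor kept 7, beside 43.2% of all genes for RARα, 40.7% for RARβ and 21.4% for RXRα. With peaks of a score of at least 100 only, RARβ was left at 2 of the 10 genes in the control list, beside 22.5% of all genes, and at 7 under RA (40.2%). RARα was left at 6 and 9 genes in control and RA lists (52.7% and 55.6%), and RXRα at 10 and 10 (49.1% and 51.4%).

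Over the whole windows the 10 genes held 526 peaks. RARα gave 65 of them in the control list and 99 in the RA list, RARβ gave 36 and 68, and RXRα 125 and 133. For both RARs the number was higher under RA at 10 of 10 genes, and the same held for 47.9% of all genes with RARα and 56.7% with RARβ, whose windows were mostly shorter. For RXRα it was higher at 7 genes (29.5% of all genes), lower at 2, Mlxipl and Scd1 (33.1%), and equal at Gpam. In lists of equal length the number for RARα was higher under RA at 1 of the 10 genes (17.3% of all genes), lower at 2 (23.1%) and equal at 7. For RARβ it was higher at 3 (20.8% of all genes), lower at 3 (29.4%) and equal at 4. The ratio of RA to control was 1.52 for RARα against 1.25 for its whole lists, 1.89 against 1.97 for RARβ and 1.06 against 0.975 for RXRα. Both RARs thus had more peaks where their lists were longer, and in lists cut to equal length the ratios were 0.971 for RARα and 1.06 for RARβ. Depth and binding cannot be told apart in these counts. Gpam showed the widest step, from 2 to 10 RARβ peaks and from 6 to 12 RARα peaks, with 17 RXRα peaks in each diet. Me1 went from 0 to 3 RARβ peaks, and Srebf1 from 5 to 11 RARα peaks.

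**Figure D1:**
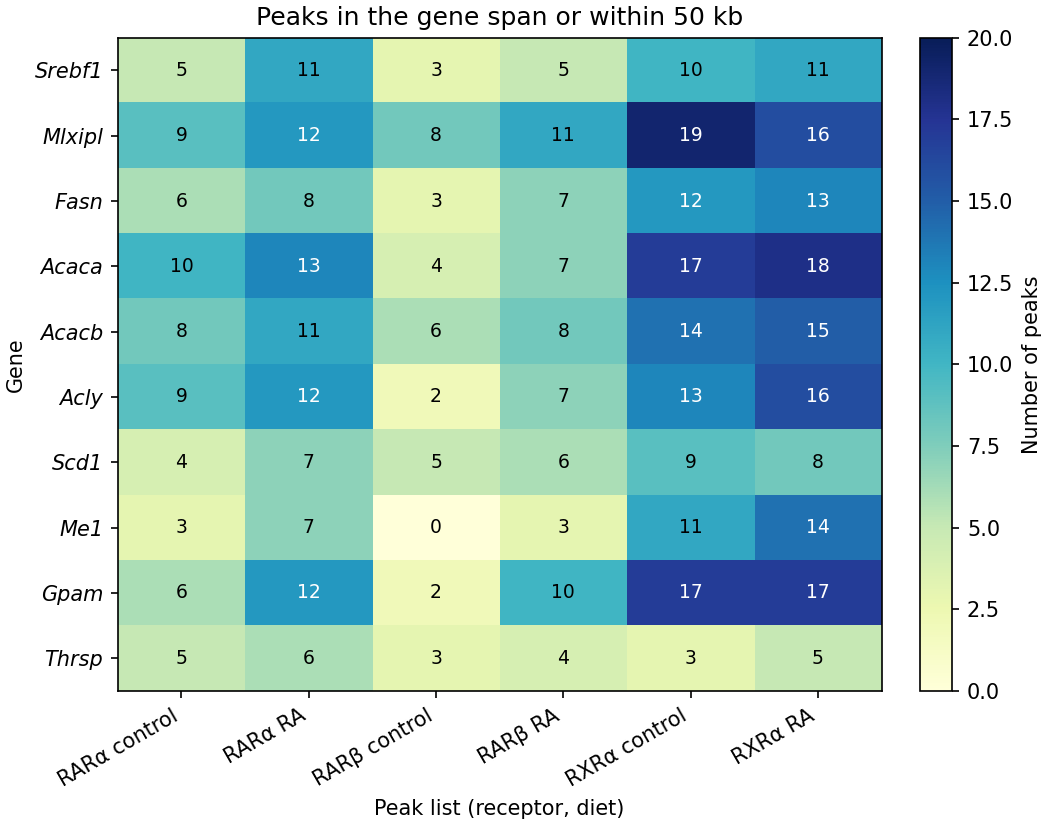
Number of peaks in the span of each gene or within 50 kb of it (rows, 10 genes) in each of the 6 lists (columns, receptor and diet), printed in the cell and shaded by the number. RXRα reaches 19 peaks at Mlxipl under the control diet, and Me1 has 0 RARβ peaks under the control diet.

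The windows differ in size and content. The genes had a median length of 50.8 kb against 17.3 kb over all protein-coding genes, and their windows held the starts of 28 other protein-coding genes, 6 of them around Mlxipl and none around Srebf1, Scd1 or Gpam. Of the 65 RARα control peaks, 18 lay within 1 kb of another gene's start, and of the 125 RXRα control peaks 17 did. Peaks at such starts are named below with the neighbour, and whether they act on the lipogenic gene was not tested.

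**Figure D2:**
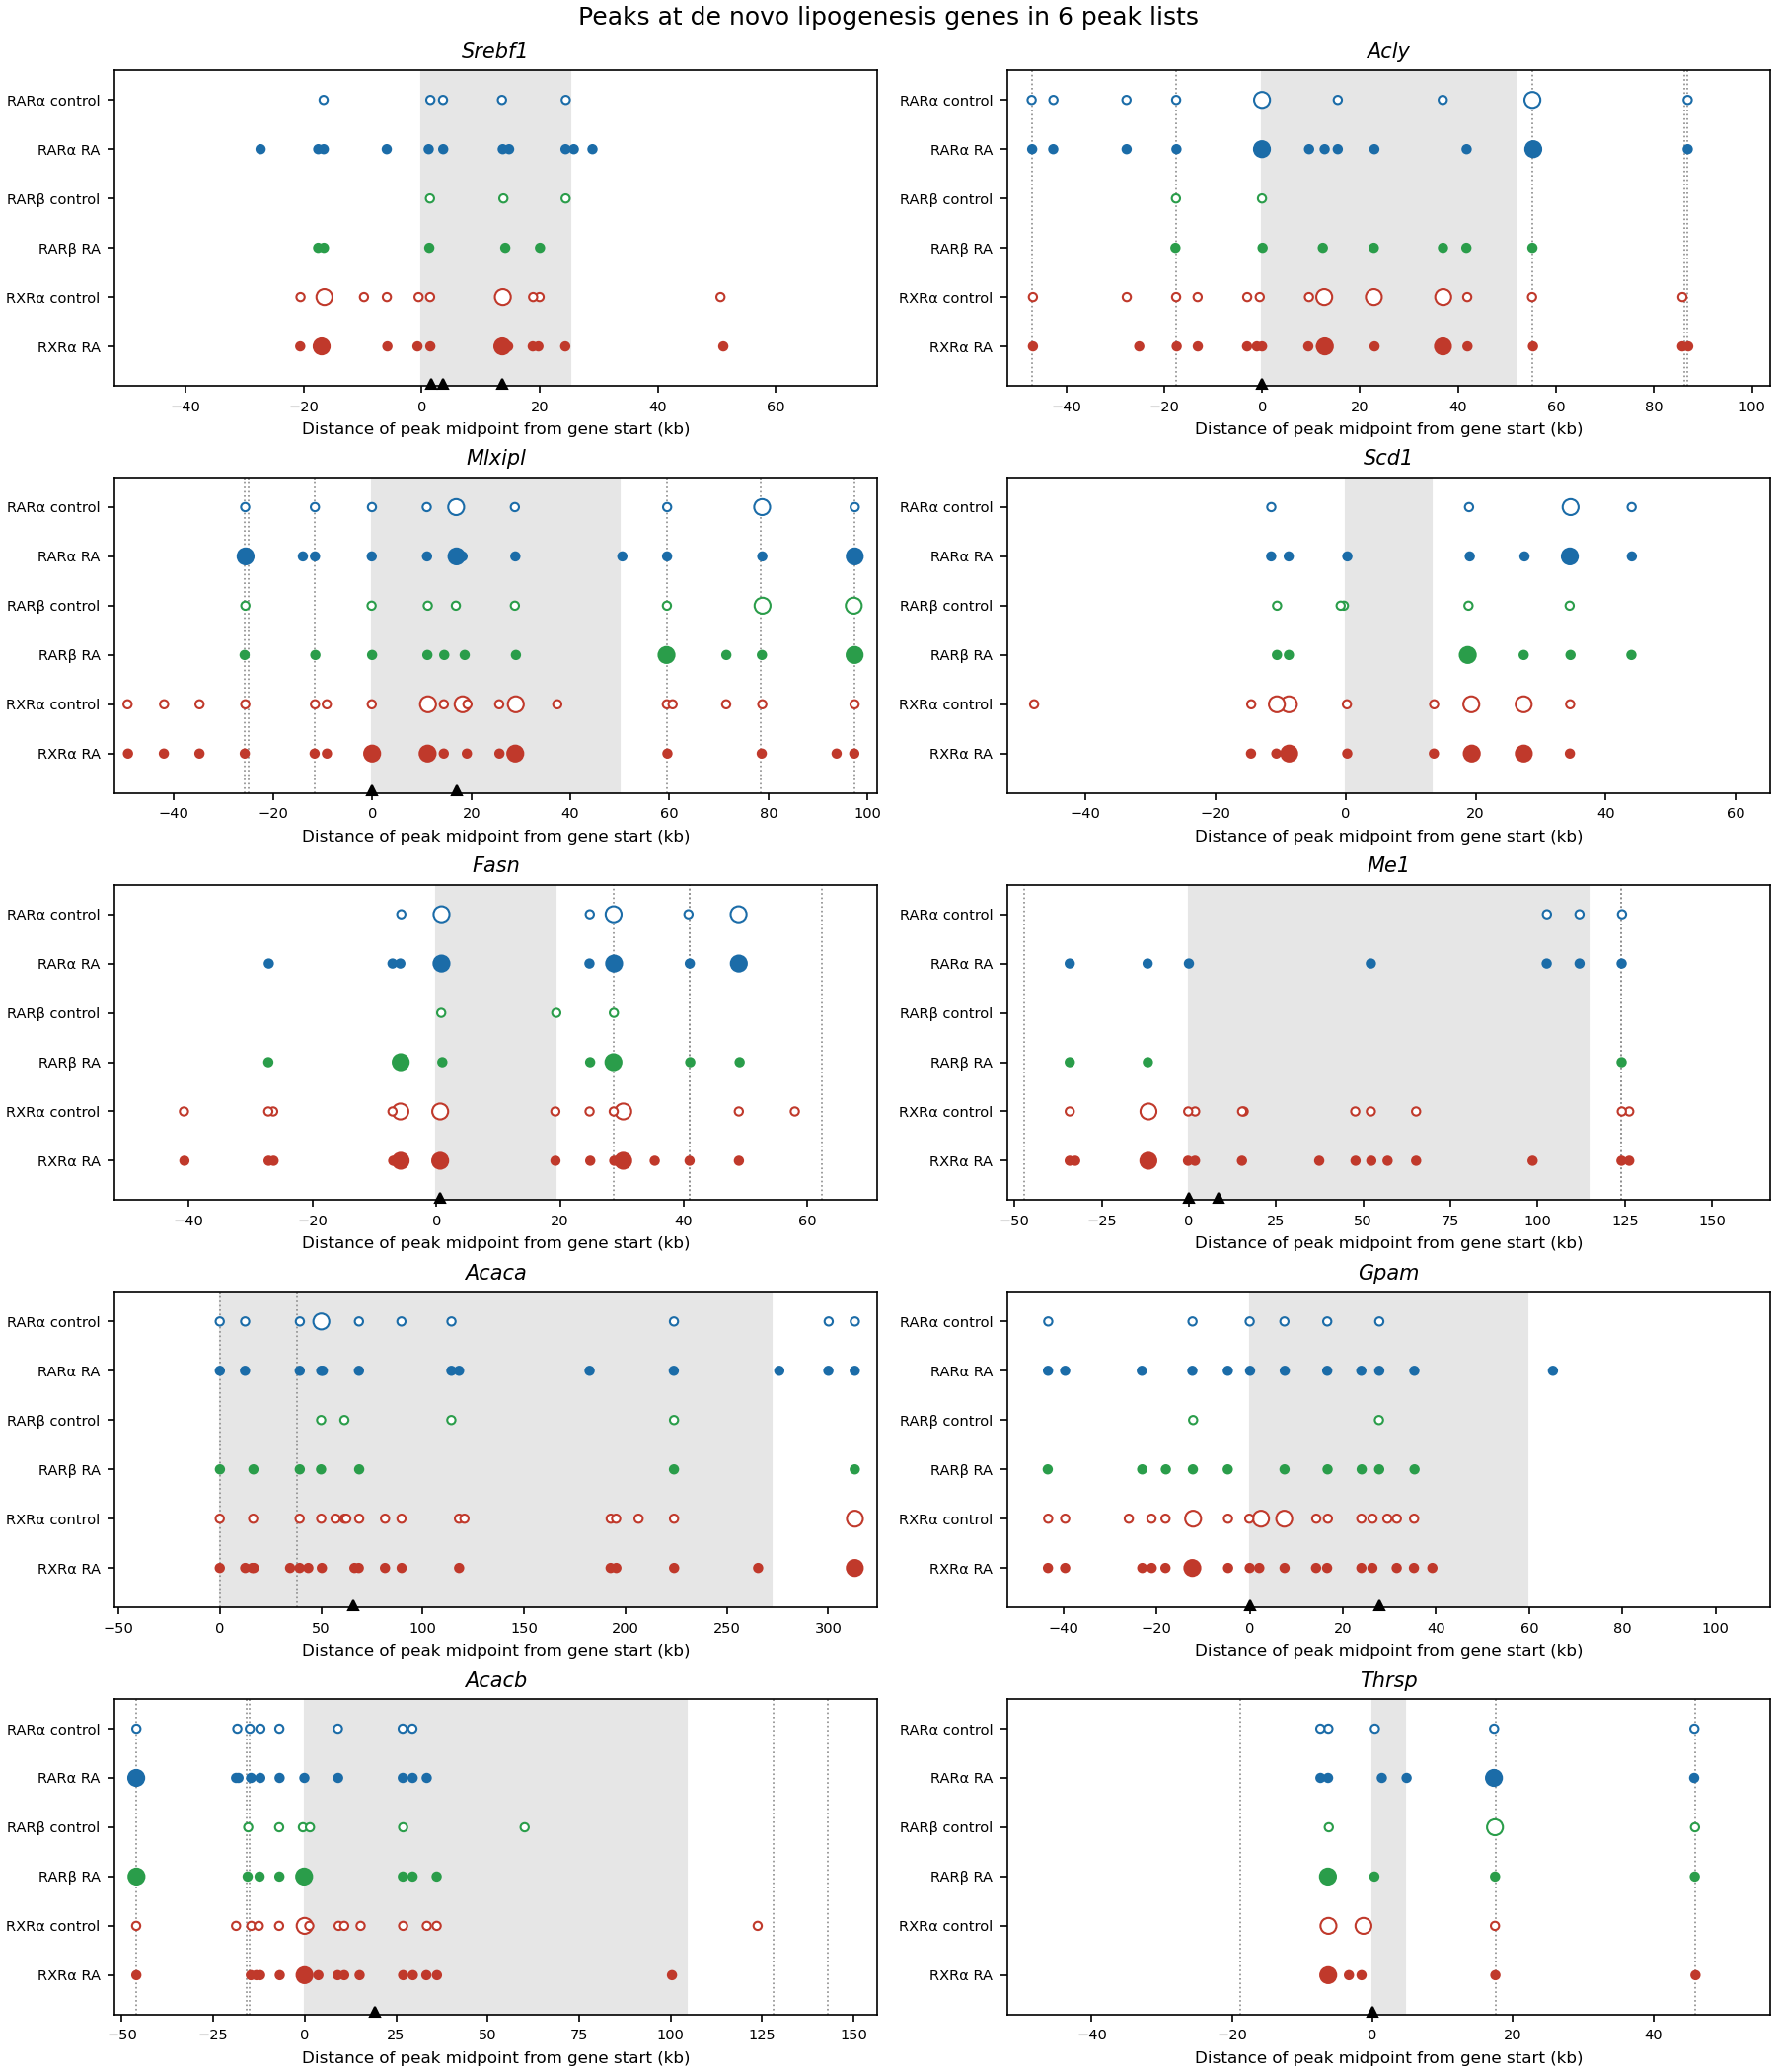
Position of every peak midpoint around each of the 10 genes (x axis, distance from the outermost gene start in kb), with a lane for each of the 6 lists. Open points are control-diet peaks, filled points RA-diet peaks and large points the top 10% of their list, with the gene span in grey, dotted lines at the starts of other protein-coding genes and triangles at the starts of the RefSeq promoter table. RXRα peaks of the top 10% stand away from the starts at most genes, whereas the strongest RARα peaks of Acly in both diets and of Fasn under RA stand over the start.

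At 5 genes, peaks covered a start of the RefSeq promoter table in at least 4 lists. The promoters (250 bases before to 50 after the start, from RefSeq, GRCm38.p6) of 6 such starts are shown because the calls of these receptors bear on them. The outermost starts of Acaca and Acacb are not in that table and were not counted. A second Gpam start, also covered in 4 lists, is left out for length, and Scd1 is not shown. Capitals mark matches on either strand to hexamers that nuclear receptors bind, which are AGGTCA and its variants with the letters GGGTCA as well as those with the letters AGTTCA. They also mark the E-box CACGTG, the sterol response element core CACCCCAC and the NF-Y box CCAAT.
Srebf1, start at 1605 bp (5 lists), chr11:60222532-60222831, minus strand: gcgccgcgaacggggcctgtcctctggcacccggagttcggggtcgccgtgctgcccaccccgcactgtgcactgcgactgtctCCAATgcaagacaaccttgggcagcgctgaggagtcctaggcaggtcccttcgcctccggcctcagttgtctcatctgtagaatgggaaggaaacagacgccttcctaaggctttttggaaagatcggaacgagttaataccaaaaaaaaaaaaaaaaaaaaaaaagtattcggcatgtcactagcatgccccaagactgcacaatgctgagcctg
Srebf1, start at 13715 bp (6 lists), chr11:60210422-60210721, minus strand: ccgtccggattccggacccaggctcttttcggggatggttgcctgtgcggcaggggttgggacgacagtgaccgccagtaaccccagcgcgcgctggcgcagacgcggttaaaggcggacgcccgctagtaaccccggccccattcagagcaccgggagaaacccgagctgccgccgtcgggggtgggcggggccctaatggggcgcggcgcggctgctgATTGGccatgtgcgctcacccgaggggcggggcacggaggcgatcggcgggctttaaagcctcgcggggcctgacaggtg
Mlxipl, outermost start (6 lists), chr5:135089640-135089939, plus strand: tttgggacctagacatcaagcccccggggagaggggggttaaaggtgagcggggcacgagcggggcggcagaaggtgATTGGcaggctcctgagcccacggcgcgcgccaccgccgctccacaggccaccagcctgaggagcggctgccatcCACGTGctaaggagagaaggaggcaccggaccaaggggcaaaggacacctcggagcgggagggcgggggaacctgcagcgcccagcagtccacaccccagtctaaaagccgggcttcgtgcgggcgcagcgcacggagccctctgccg
Fasn, start at 619 bp (6 lists), chr11:120824498-120824797, minus strand: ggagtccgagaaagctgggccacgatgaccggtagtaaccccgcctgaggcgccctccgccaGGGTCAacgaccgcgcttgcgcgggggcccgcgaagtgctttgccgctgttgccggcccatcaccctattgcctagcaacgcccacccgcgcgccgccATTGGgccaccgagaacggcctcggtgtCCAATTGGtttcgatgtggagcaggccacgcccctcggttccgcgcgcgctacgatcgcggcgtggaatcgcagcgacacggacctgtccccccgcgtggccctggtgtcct
Acly, outermost start (6 lists), chr11:100527951-100528250, minus strand: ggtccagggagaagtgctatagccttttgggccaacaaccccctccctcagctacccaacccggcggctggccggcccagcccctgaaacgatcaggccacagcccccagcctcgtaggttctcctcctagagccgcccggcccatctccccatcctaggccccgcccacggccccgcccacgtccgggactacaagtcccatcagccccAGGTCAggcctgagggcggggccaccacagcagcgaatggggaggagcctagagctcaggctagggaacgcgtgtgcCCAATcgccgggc
Gpam, start at 81 bp (4 lists), chr19:55127189-55127488, minus strand: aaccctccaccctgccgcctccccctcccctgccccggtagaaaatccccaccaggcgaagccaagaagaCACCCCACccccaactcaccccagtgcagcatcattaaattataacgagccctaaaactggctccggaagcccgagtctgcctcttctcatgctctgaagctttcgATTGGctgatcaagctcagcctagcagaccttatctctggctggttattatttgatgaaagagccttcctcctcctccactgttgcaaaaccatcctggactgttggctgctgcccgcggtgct

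The matched letters differed from promoter to promoter. Fasn held GGGTCA at −188 bp, and 3 NF-Y boxes at −90, −62 and −59 bp, of which the last pair overlap on opposite strands. Acly held AGGTCA at −40 bp and an NF-Y box at 37 bp. Mlxipl held the E-box at −98 bp and Gpam the sterol response element core at −180 bp. Of 14 promoters in the table for 9 of the genes, 6 held at least one of the receptor hexamers, against 35.3% of 21263 promoters, and 9 held an NF-Y box, against 38.2%. AGGTCA was in 3 (14.7% of all promoters), GGGTCA in 2 (13.7%), AGTTCA in 2 (12.5%), CACGTG in 1 (7.84%) and CACCCCAC in 1 (2.88%). A match describes letters and not a bound site, and the peaks, whose median width was 450 to 675 bp by list, do not resolve one.

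Srebf1 (chr11:60199084-60224186, minus strand, GRCm38) encodes SREBP-1a from an upstream and SREBP-1c from a downstream first exon. The innermost of its 3 RefSeq starts, at 13715 bp, was covered in all 6 lists. RARα scored 312 there under the control diet and 351 under RA (top 12.3% and 10.3%), RARβ 72.5 and 173 (top 54.2% and 19.9%) and RXRα 573 and 559 (top 7.05% and 8.13%). The RARβ peak thus ranked higher under RA, while RARα and RXRα kept a similar rank. At the outer start, 1605 bp inside, a region was also called in all 6 lists, with ranks from the top 19.6% for RARβ under RA to 98.1% for RARβ under the control diet. The start between them, at 3559 bp, carried RARα alone, with scores of 95.7 and 141. The best RXRα peak lay upstream, at −16.5 kb under the control diet (score 593, top 6.48%) and −16.9 kb under RA (score 587, top 7.29%), where RARα was called in both diets and RARβ under RA only.

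Mlxipl (chr5:135089890-135139768, plus strand) encodes ChREBP, whose β form starts at an upstream and whose α form at a downstream first exon. The outermost start was covered in all 6 lists, with RARα scores of 163 and 246, RARβ of 59.4 and 107 and RXRα of 280 and 521 under control diet and RA. Each receptor ranked higher under RA there, and RXRα moved from the top 24.9% to the top 9.50%. The downstream RefSeq start, at 17001 bp, held the best RARα peaks of the gene, with scores of 496 and 522 (top 3.39% and 2.89%). RARβ was called there under the control diet only (score 70.0), and RXRα in neither diet. RXRα was instead strongest in the gene at 11.3 kb under the control diet (score 899, top 1.93%) and 11.2 kb under RA (score 753, top 3.85%), a region called in all 6 lists. The RXRα regions without a RAR in both diets moved both ways in rank. From control to RA they went from the top 27.1% to 86.2% at −49.4 kb, from 36.7% to 70.0% at −42.0 kb and from 12.5% to 64.9% at −34.9 kb, but from 39.4% to 30.3% at −9.15 kb and from 74.5% to 57.7% at 25.7 kb. The window held 7 regions called in all 6 lists, and 4 of them were at the starts of Dnajc30, Tbl2, Bcl7b and Baz1b, where the best RARβ peaks of both diets lay (Baz1b, scores 319 and 434).

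Acly (chr11:100476352-100528000, minus strand) had the strongest RARα peaks of the 10 genes, both over its start. The score was 880 under the control diet, rank 112 of 35521 (top 0.315%), and 672 under RA, rank 415 of 44296 (top 0.937%). The other receptors were weaker over the same start. RARβ scored 77.9 and 69.0 (top 48.3% and 74.2%). RXRα scored 239 in a broad control peak, and under RA it was called as separate peaks of 95.8 over the start and 162 at −1.08 kb. The best RXRα peaks were intragenic, at 22.8 kb under the control diet (score 610, top 6.02%) and at 12.8 kb under RA (score 694, top 4.80%). At 12.8 kb both RARs were called under RA only, with scores of 85.0 for RARα and 135 for RARβ.

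Me1 (chr9:86581363-86695914, minus strand) had no RARβ peak under the control diet and 3 under RA. Its best RXRα peak, at −11.6 kb, scored 579 under the control diet and 807 under RA (top 6.85% and 3.20%), and both RARs were called there under RA only, with low scores of 105 for RARα and 57.8 for RARβ. Over the start, RXRα scored 133 and 416 (top 52.4% and 14.5%) and RARα 134 under RA only. The best RARα peaks in the window, 238 and 351, lay at the start of the neighbouring Pgm3, 124 kb away.

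Both carboxylase genes had a start called by RXRα in both diets, at very different ranks. The outermost start of Acacb (chr5:114146321-114250761, plus strand), whose product is bound to mitochondria and limits fatty acid oxidation, scored 712 and 705 for RXRα (top 3.92% and 4.58%). RARβ there had a peak of score 51.1 at −0.496 kb under the control diet (top 96.1%) and of 275 over the start under RA (top 6.14%), and RARα was called under RA only (score 192, top 30.3%). Acaca (chr11:84129635-84401651, plus strand), the cytosolic form, shares its outermost start with Tada2a, which lies 9 bp away. RXRα scored 124 and 122 there (top 55.4% and 57.1%), RARα 124 and 164, and RARβ 104 under RA only. A region 49.9 kb into Acaca was called in all 6 lists, with RARα at 374 and 247 (top 8.04% and 21.2%). The best RXRα peaks lay past the end of the gene, at 313 kb, with scores of 898 and 724 (top 1.94% and 4.25%), 70712 bp or more from the nearest protein-coding start, that of Aatf. The inner RefSeq starts of both genes, at 65803 bp in Acaca and 19197 bp in Acacb, had no peak over them in any list.

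Fasn (chr11:120805958-120825166, minus strand) had strong peaks both over and upstream of its start. Over the start, RARα scored 560 under the control diet and 661 under RA (top 2.16% and 0.982%), RARβ 119 and 156 (top 23.5% and 24.8%) and RXRα 773 and 658 (top 3.13% and 5.51%). At −5.75 kb the order of the receptors was another. RXRα scored 781 and 1099 (top 3.02% and 1.10%), RARβ was called under RA only, with its best peak of the gene (score 389, top 2.31%), and RARα scored 117 and 163 (top 47.7% and 37.1%). The upstream region thus ranked higher under RA for RXRα and RARα. Over the start RARα also ranked higher under RA, RXRα ranked lower and RARβ kept a similar rank. The best RARα and RARβ peaks of the control diet lay at the start of Dus1l, 28.7 kb away, with scores of 587 and 166.

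Scd1 (chr19:44394450-44407709, minus strand) had, under RA, the best-ranked RXRα peak of the 10 genes, at −8.66 kb (score 1145, top 0.933%). The control peak there, at −8.71 kb, scored 822 (top 2.57%). Neither RAR was called there under the control diet, and under RA RARβ scored 213 (top 12.3%) and RARα 75.7 (top 75.5%). Within 1 kb of the start the peaks were weaker. RXRα scored 151 and 307, RARα 68.5 under RA only, and RARβ had a pair of control peaks of 59.0 and 61.0 and none under RA. A region at 19.4 kb, beyond the end of the gene, was called in all 6 lists. RXRα scored 750 and 773 there, RARβ 102 and 285 (top 30.9% and 5.66%) and RARα 217 and 91.5 (top 23.3% and 64.6%), so the RARs moved in opposite directions in rank.

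Gpam (chr19:55067635-55127319, minus strand) had its best RXRα peak at −12.1 kb under the control diet (score 770, top 3.18%) and −12.3 kb under RA (score 929, top 2.04%). This region was called in all 6 lists, with RARβ at 68.6 and 198 (top 59.2% and 14.7%) and RARα at 133 and 177 (top 41.9% and 33.6%). Over the outer RefSeq start, RARα scored 168 and 261 and RXRα 253 and 149, and RARβ was not called. The inner start, at 27842 bp, showed another set, with low-ranked peaks of both RARs in both diets (scores from 52.8 to 93.7) and no RXRα peak.

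Thrsp (chr7:97412933-97417550, minus strand) encodes Spot 14, a small protein that rises with thyroid hormone and carbohydrate feeding. At −6.30 kb all 6 lists had a peak. RXRα scored 948 and 1023 (top 1.56% and 1.42%), RARβ 111 and 330 (top 26.7% and 3.71%) and RARα 65.8 and 94.5 (top 80.1% and 63.0%). Over the start itself RARα was called in both diets (163 and 238) and RARβ under RA (69.4), without RXRα. RXRα lay just upstream, at −1.28 kb under the control diet (score 626, top 5.61%) and −1.55 kb under RA (score 325, top 21.0%), where no RAR was called. The best RARα peaks, 340 and 547, were at the start of Ndufc2, 17.3 kb away.

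The position of the best peak thus differed with the receptor. For RXRα the best peak was beyond 1 kb of any protein-coding start at 9 genes in each diet, the exception being Acacb, and its median rank was the top 3.10% in the control list and 3.53% in the RA list. For RARα it was within 1 kb of the gene's own start at 4 genes in the control list and 5 in the RA list, and within 1 kb of another gene's start at 4 and 3. Its median rank was the top 9.12% and 7.23%. For RARβ the median was the top 22.3% over the 9 genes with a control peak and 10.4% over 10 genes under RA. The RARβ best peak was at the gene's own start at 0 genes under the control diet and 2 under RA. A best peak is picked from all peaks of its list in the window, and RXRα had the most peaks in total. Over all peaks in the windows, the median rank in control and RA lists was the top 39.4% and 46.7% for RXRα. It was 40.9% and 50.1% for RARα, and 53.9% and 44.1% for RARβ. The ranks and positions of best peaks were not computed over all genes.

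**Figure D3:**
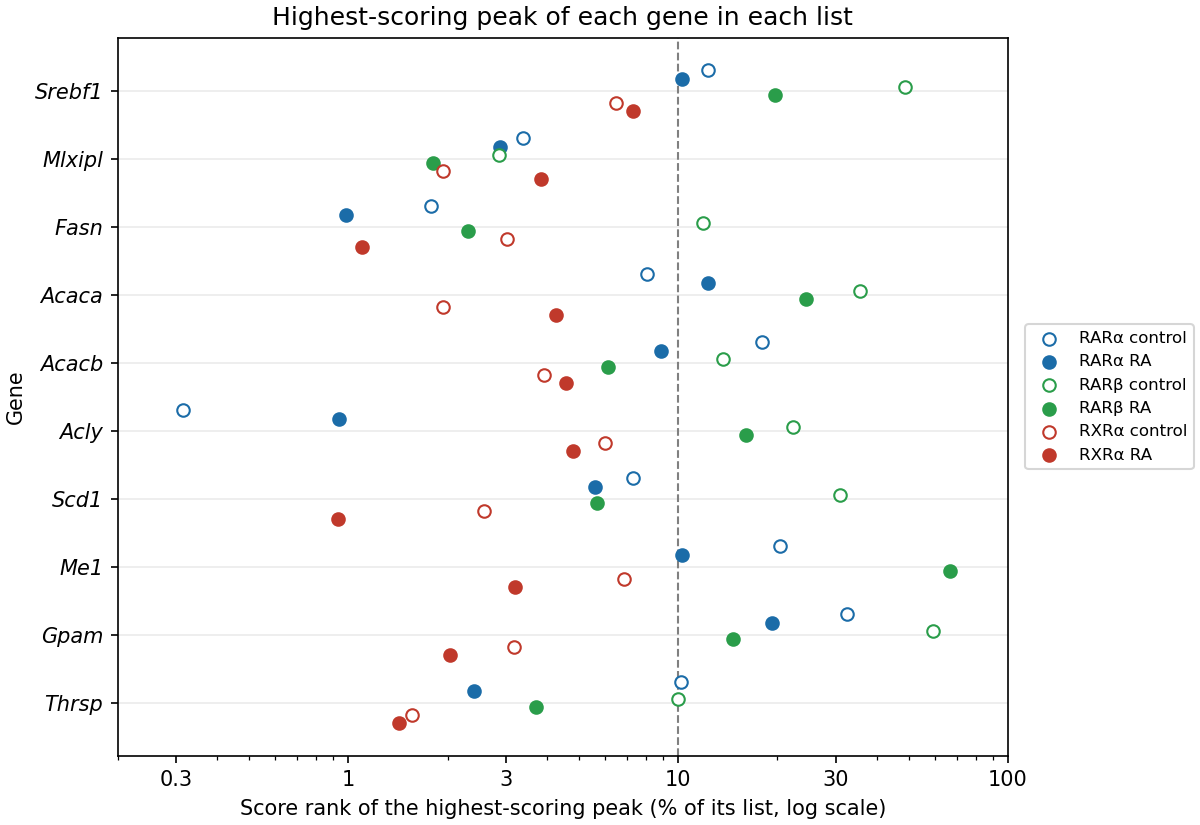
Score rank of the best peak of each gene (y axis) in each list (x axis, percent of the list scoring as high or higher, log scale, stronger peaks towards smaller values), with a dashed vertical line at 10%. All RXRα points lie between 0.933% and 7.29%, whereas RARβ points reach 66.7%.

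All 10 genes had an RXRα peak of the top 10% of the list in the window in each diet, where 34.3% (control) and 33.0% (RA) of all genes did. For RARα 5 and 6 genes did (36.2% and 40.2% of all genes), and for RARβ 1 and 5 (18.4% and 29.1%). The windows of these genes are longer than most, so the count was repeated within 10 kb of the start. There, RXRα had 5 genes in each diet against 8.62% and 8.06% of all genes. Fasn, Acacb, Scd1 and Thrsp were among the 5 in both diets, with Gpam under the control diet and Mlxipl under RA. RARα had Fasn and Acly in both diets, 2 genes against 16.8% and 17.1% of all genes. RARβ had 0 under the control diet (7.07% of all genes) and 3 under RA, Fasn, Acacb and Thrsp (10.8%).

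Most peaks of each list overlapped a peak of the other diet, except in the RARβ RA list, which is 1.97 times as long as its control list. A peak was counted as shared when the overlap reached 25% of both widths. Of the RARα control peaks at the 10 genes, 63 of 65 were shared with RA (96.9%, Wilson 95% interval 89.5 to 99.2, 84.2% of the whole list), and of the RA peaks 64 of 99 were shared with control (64.6%, 54.8 to 73.4, 68.4% of the list). For RARβ the shares were 27 of 36 (75.0%, 58.9 to 86.2, 75.8% of the list) and 27 of 68 (39.7%, 28.9 to 51.6, 38.2%). For RXRα they were 106 of 125 (84.8%, 77.5 to 90.0, 78.7%) and 108 of 133 (81.2%, 73.7 to 86.9, 80.3%). The RARα control share stood above its list, but in lists of equal length it was 79.4% against 78.0% for the whole list. The RARβ shares were then 61.1% for control and 57.9% for RA peaks, against 56.8% and 56.0% for the whole lists. The other 5 shares had intervals that held the value of the whole list.

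In the full lists, most RAR peaks at these genes overlapped an RXRα peak of the same diet. For RARα 46 of 65 did in the control diet (70.8%, 58.8 to 80.4, 61.1% of the list) and 74 of 99 under RA (74.7%, 65.4 to 82.3, 61.7%). RARβ overlapped RXRα at 27 of 36 (75.0%, 58.9 to 86.2, 77.8% of the list) and 63 of 68 (92.6%, 83.9 to 96.8, 89.9%). RARβ overlapped RARα at 28 of 36 (77.8%, 61.9 to 88.3, 74.2%) and 59 of 68 (86.8%, 76.7 to 92.9, 72.1%). In the RA diet the overlaps of RARα with RXRα and of RARβ with RARα were above their lists by more than the counting interval. With lists of equal length these were 30.3% against 21.9% and 44.7% against 45.4%, so the excess of RARβ with RARα was not seen there. The 30.3% rested on 10 of 33 peaks and no interval was computed for it. Whether that excess passes counting error at equal length was therefore not tested. The overlap with RXRα was then 23.5% for RARα control peaks (18.0% of the whole list), 30.6% for RARβ control (31.0%) and 57.9% for RARβ RA peaks (55.7%). It held most peaks only for RARβ under RA, as it did in the whole lists. Neighbouring peaks of 1 gene are not independent of each other, which these intervals do not cover.

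**Figure D4:**
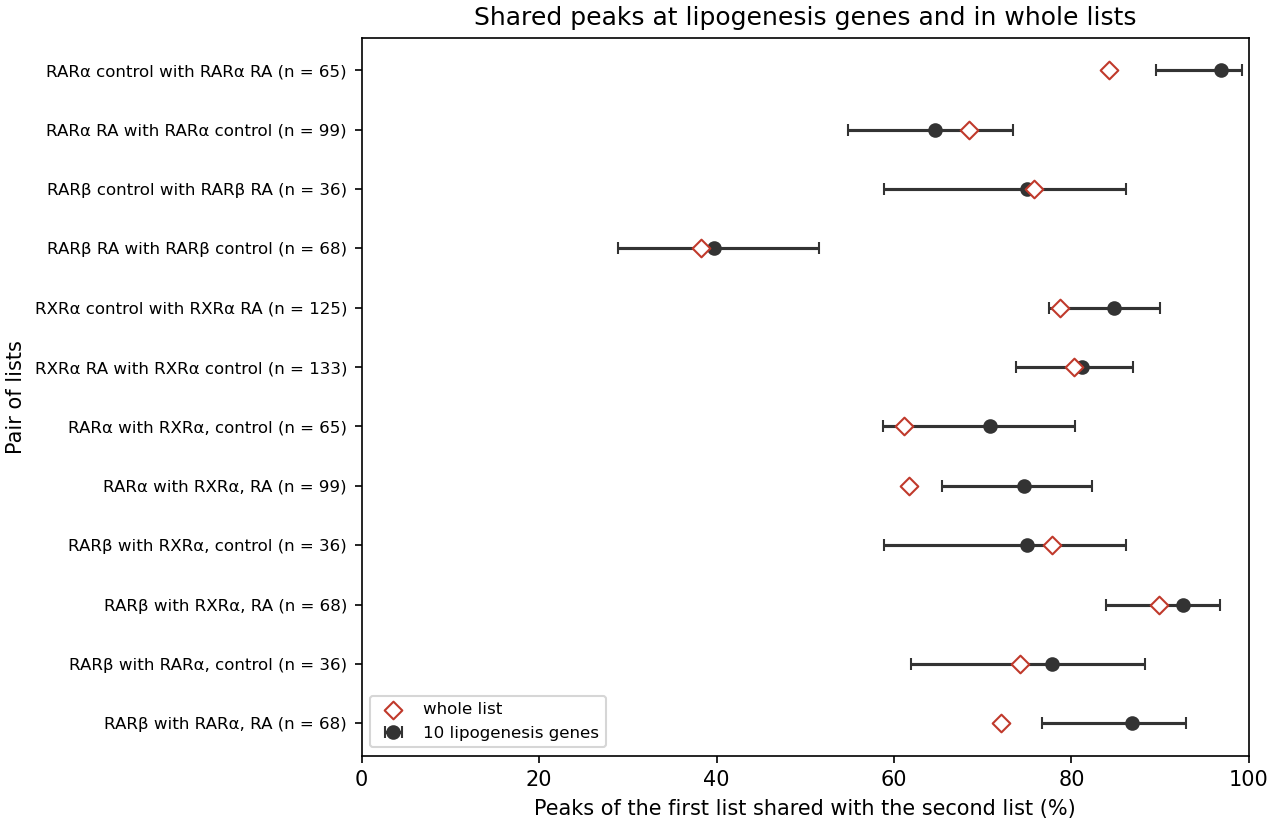
Share of peaks at the 10 genes that overlapped a peak of the other diet or of another receptor (black points, percent, bars showing Wilson 95% intervals), with the share over the whole list as open diamonds. The lowest share is that of RARβ RA peaks found in the control diet, 39.7%, and the highest that of RARα control peaks found under RA, 96.9%.

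Merging the 6 lists gave 170 regions at the 10 genes. All 6 lists called 23 of them, 13.5% against 10.6% of 75557 regions in the windows of all genes. With a score of at least 100 it was 7 of 127 (5.51% against 4.87%), and with lists of equal length 5 of 88 (5.68% against 3.66%). Mlxipl had 7 of the 23, Acacb 3, Gpam 1 and Me1 0. RXRα without a RAR made up 61 regions, or 35.9% against 35.1%, and RARs without RXRα 24 regions, or 14.1% against 20.3%. A group of 22 regions had RXRα in both diets and RARα under RA only, 12.9% against 7.78%, and 34 of the 170 had RXRα in both diets and RARβ under RA only, against 16.3% of the regions of all genes. Both RARs appeared under RA only at 12 regions with RXRα in both diets, 7.06% against 3.72%, among them the Scd1 region at −8.71 kb and the Me1 region at −11.6 kb. Conversely, 2 regions had RARα under the control diet only, 1.18% against 6.10%, and 9 had RARβ under the control diet only, 5.29% against 3.55%. The lists of both RARs were longer under RA, and the part of list length in these counts was not tested.

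Peaks near the start were also common among other genes of the pathway. Of 33 genes for SREBP and LXR control, sugar feed, acetyl-CoA and NADPH supply, fatty acid modification, helpers and triglyceride assembly, 33 had a RARα peak at most 10 kb from the start in each diet. The control and RA lists of RARβ had one at 25 and 32 genes, and those of RXRα at 32 and 33. The shares of all genes are those given above for the 10 genes. All 6 lists had a peak at 25 genes, against 38.2% of all genes. Among the 25 were Nr1h3, which encodes LXRα, Insig1, which retains the SREBP precursor, Mlx, the partner of ChREBP, and the elongase Elovl6. The fewest lists, 4, were found for Mbtps2, a protease of SREBP processing, and the desaturase Scd2. RARβ under the control diet was present at 2 of 4 sugar-feed genes, 3 of 5 modification genes and 5 of 7 triglyceride genes. It was present at 7 of 8 genes of SREBP and LXR control, 4 of 5 supply genes and 4 of 4 helpers. The share of all genes was 44.1%.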

How the data were processed

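ChIP-seq peak lists of 6 liver libraries were used. Single-end reads of 35 bp, per the labels, were aligned by the authors in Bowtie 0.12.7, and MACS 1.4.1 was their peak caller, as the study's methods give it. The submitters' processing notes also name CASAVA 1.4 and mm10. Each deposited list gives peak coordinates and the MACS score, which was at least 50 in every list and is −10 times the log10 of the p-value, not normalized between libraries. Read totals per library and diet are not given in the sources used here, where the study names totals for RXRα and RARα only. Peaks were called per library. Coordinates are GRCm38, since peaks on chromosome Y reach 90842021.

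Gene spans came from the RefSeq gene table, with strands from the RefSeq promoter table (17492 genes) or GENCODE M1 (4044). Overlaps required 25% of both widths, and regions were merged peaks. Intervals are Wilson 95%. Alternatives were a score of at least 100, lists of equal length, an overlap of 1 bp, other windows and nearest-start assignment. The code (Python 3.11.15, pandas 2.3.3, SciPy 1.17.1) was tested on simulated data. The genes, lists and the search motifs were chosen with earlier results of these data known. The genes named are the 10 chosen and at most 6 of the pathway list, those bound in all 6 lists or in the fewest, and the peaks named are the best per gene and list, the regions called in all lists, in 1 diet or by 1 receptor, and peaks over annotated starts.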

Additional observations from a re-analysis of the deposited data

Results flagged for a closer look

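RXRα moved against both RARs in peak number at 2 of the 10 genes. Among all genes 33.1% had fewer RXRα peaks under RA, so a lower RXRα number was not particular to these genes. The share of all genes with RXRα against both RARs was not computed. At Mlxipl the RXRα difference, RA minus control, was −3 peaks (19 to 16), while RARα and RARβ each had 3 more. There 1 wide RA peak covered 2 control peaks, and by merged regions 3 had RXRα under the control diet only and 1 under RA only. At Scd1 it was −1 peak (9 to 8), while RARα had 3 more and RARβ 1 more. With 1 library per receptor and diet, neither difference was tested.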

How the results depend on the processing

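Of 114 values recomputed for the comparisons, 85 stayed close to the value reported, 28 moved and 1 reversed. With lists of equal length (14968 peaks each), which by construction keeps fewer peaks, the RA to control ratio of RARα peaks became 0.971 and that of RARβ 1.06. Genes bound near the start numbered 5 for RARα and 5 for RXRα in the control lists (47.1% and 20.6% of all genes). Of the 33 pathway genes, RXRα was left at 16 under control diet and 15 under RA (20.6% and 21.4% of all genes). Sharing between diets became 79.4% for RARα control (78.0% of the whole list), 81.8% for RARα RA (78.1%) and 57.9% for RARβ RA peaks (56.0%). Sharing with RXRα became 23.5% and 30.3% for RARα under control diet and RA (18.0% and 21.9% of the whole lists). For RARβ it became 30.6% and 57.9% (31.0% and 55.7%). Sharing of RARβ with RARα became 52.8% and 44.7% (51.0% and 45.4%). Regions in all 6 lists numbered 5 with equal lists, 7 with a score of at least 100 and 15 within 10 kb of the gene span. A score of at least 100 left 2 genes and 15 pathway genes bound by RARβ under the control diet (22.5% of all genes), a RARβ ratio of 2.92, and RA-diet sharing of RARβ with RXRα of 97.4% and with RARα of 68.4%. Within 10 kb of the start, an alternative chosen after seeing the data, genes with a top 10% peak numbered 2, 2, 0, 3, 5 and 5 (RARα, RARβ, RXRα, control before RA). The cause of the other changes was not tested.

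No paired analysis was possible because each receptor and diet had 1 library. For the same reason no library was left out. Read depth is not known for each library, so a missing peak is not a missing receptor, most of all in the RARβ control list.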
